A study of Mus musculus with 4 samples.

Results

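Mature neutrophils of trabecular bone were described in single-cell RNA-Seq libraries of digested mouse bone and marrow. Members were chosen by a rule on measured values. Each member barcode held at least 500 unique molecular identifiers (UMIs, 1 for each captured RNA molecule) and at least 200 genes, with at most 10% of its UMIs from mitochondrial genes. In addition, S100a8 and S100a9 together took at least 3% of its UMIs, the granule genes Ngp, Camp and Ltf together less than 1%, and Elane, Mpo and Prtn3 together less than 0.5%. The rule found 3324 cells, 1460 in the control library and 1864 in the glucocorticoid (GC) library, of 8765 barcodes that passed the filters in trabecular bone and 23216 in the series.

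The series holds 4 libraries, 1 of trabecular bone and 1 of fracture callus from each treatment. All mice were C57BL/6J males of 20 weeks. Controls received a placebo pellet and GC mice a slow-release prednisolone pellet under the skin at 6.25 mg/kg/d, and tissue was taken at week 2. The labels give this pellet for the callus libraries too, whereas the study's text describes daily injection in the fracture experiment. The number of mice behind a library was not given in the sources used here. Flushed marrow and crushed bone were both digested and pooled, so the trabecular libraries hold marrow cells as well as cells of the bone surface. With 1 library per condition, treatment and library cannot be told apart and no difference could be tested. All intervals below are exact 95% intervals that cover counting error only.

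Neutrophils are the short-lived phagocytes that the marrow releases in large numbers. As they mature they pass from making primary granule proteins (Elane, Mpo, Prtn3), through secondary granule proteins (Ngp, Camp, Ltf), to gelatinase granules and surface receptors, and they then wait in the marrow until CXCR2 ligands, G-CSF or a loss of CXCR4 retention draws them into blood. Glucocorticoids bind the receptor encoded by Nr3c1, which acts on DNA at palindromic response elements and also restrains NF-kB and AP-1. They are known to raise the number of neutrophils in blood and to lengthen neutrophil survival.

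Genes outside the rule that define mature neutrophils were present in the members. Cxcr2, the chemokine receptor of circulating neutrophils, stood at 418 CPM (UMIs of the gene divided by all UMIs of the class and multiplied by 1000000) in control members and 576 CPM in GC members, against 108 and 163 CPM in immature neutrophils, which met the same rule except that Ngp, Camp and Ltf took 1% or more. Csf3r, the G-CSF receptor, stood at 836 and 669 CPM against 150 and 135 CPM. Il1b stood at 3316 and 2371 CPM against 132 and 126 CPM. In control erythroblasts these 3 genes were between 0.585 and 29.3 CPM. Markers of the other cells that a marrow digest holds were read as summed levels. The summed level of 9 monocyte and macrophage markers, F13a1 left out, was 104 CPM in control and 84.7 CPM in GC members, and 1.71% and 1.02% of members held 3 or more of these UMIs. With F13a1 counted, 1.71% and 27.4% did. Of 7 B-cell markers the sum was 106 CPM in control members and 1.48 CPM in GC members, where Ms4a1, Vpreb3 and Pax5 were at 0. B cells themselves were 274 barcodes in control and 11 in GC. Of 6 T and NK markers the sum was 20.4 and 13.6 CPM, and of 4 eosinophil markers 9.03 and 3.71 CPM, with Epx at 0 in both. Sums of basophil and mast cell, dendritic, megakaryocyte, stromal and endothelial markers were at most 38.1 CPM in either library. Sums for the remaining classes were 122 and 157 CPM for promyelocyte markers, 215 and 14.3 CPM for plasma cell markers, and 10903 and 22668 CPM for erythroid markers. Of the members, 1406 of 1460 in control and 1771 of 1864 in GC held 3 or more erythroid UMIs. Erythroid transcripts made up 168443 and 110458 CPM of the free RNA (barcodes with 10 to 100 UMIs), and hemoglobin reached 1% of UMIs in 21 control and 57 GC members.

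Members had a median of 4651 UMIs and 1167 genes in control and 3842 UMIs and 1191 genes in GC, so that the control cells were the deeper ones in UMIs and not in genes. In all, 7420680 and 8087000 UMIs were summed. Only 2 member barcodes occurred in both trabecular libraries. The number of members depended on the limits of the rule. With S100a8 and S100a9 at 5% or more, 1426 control and 1713 GC members were left. With Ngp, Camp and Ltf under 0.5%, 1303 and 1556 were left. In GC, the 80 cells with S100a8 and S100a9 at 3 to 4% held Cxcr2 at 562 CPM and Il1b at 8629 CPM, and the 84 cells at 2 to 3%, outside the rule, held 267 and 5054 CPM. In control the corresponding cells numbered 19 and 20, with Cxcr2 at 150 and 107 CPM. At the other limit, the 45 control members with Ngp, Camp and Ltf at 0.8 to 1% held Retnlg at 38323 CPM and the 38 cells at 1 to 1.2% held 39019 CPM. With Elane, Mpo and Prtn3 at 0.3 to 0.5% there were 0 control and 5 GC members.

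At these limits mature neutrophils were the largest of the 3 granulocyte classes in both libraries. They made up 36.7% of the barcodes that passed the filters in control (1460 of 3977, interval 35.2 to 38.2%) and 38.9% in GC (1864 of 4788, interval 37.5 to 40.3%). Immature neutrophils made up 29.97% and 27.0%, and cells with Elane, Mpo and Prtn3 at 0.5% or more, the promyelocyte stage, 4.88% and 4.78%. Of mature and immature neutrophils together, the mature share was 55.1% (53.1 to 57.0%) in control and 59.1% (57.3 to 60.8%) in GC. The order of the libraries turned with the limits of the rule. With S100a8 and S100a9 at 5% or more the shares were 35.9% and 35.8%, and with Ngp, Camp and Ltf under 0.5% they were 32.8% and 32.5%, under the immature shares of 33.9% and 33.4%. With S100a8 and S100a9 at 10% or more the shares were 33.97% in control and 29.6% in GC, and with a stricter cutoff on UMIs, set from the largest barcodes of each library, they were 27.1% and 21.8% (702 and 642 cells), under the immature shares of 40.0% and 39.5% (1035 and 1161 cells).

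**Figure D1:**
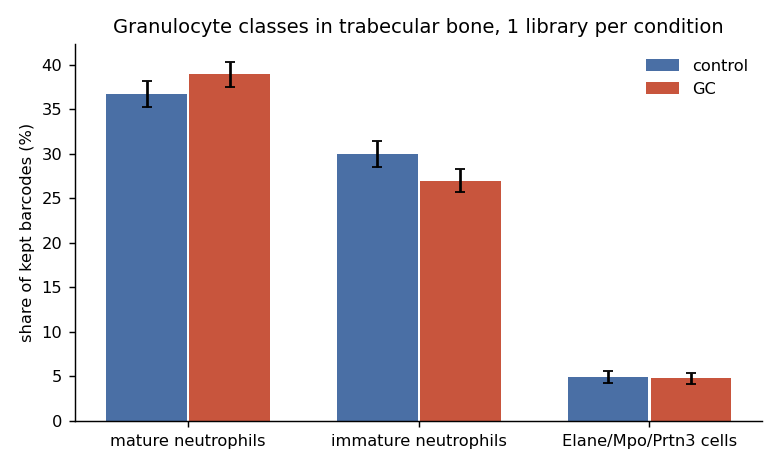
Bars give the share of kept barcodes (%, from 0) in 3 granulocyte classes of trabecular bone, blue for the control and red for the GC library. Error bars are exact 95% intervals for counting error with 1 library each. Mature neutrophils stood at 36.7% and 38.9%, above immature neutrophils at 29.97% and 27.0%.

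S100a8 and S100a9, which encode the calprotectin pair, are part of the rule, so their level is given as a description. They took a median of 30% of a control member's UMIs and 19.9% of a GC member's. The 5th percentile was 7.505% in control and 4.16% in GC. At 3 to 10% lay 109 control and 445 GC members (7.47% and 23.9%), and at 30% or more 730 and 270 (50% and 14.5%), so the GC cells reached further down.

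Across the 7390 genes with at least 50 UMIs over both libraries, rule genes left out, 172 (2.33%) were at least 2-fold higher in GC members and 84 (1.14%) at least 2-fold lower, on the scale log2((GC CPM + 5)/(control CPM + 5)). The median gene was at 0.19 on this scale, and at 0.09 when S100a8, S100a9 and hemoglobin genes were left out of the scaling. Centred on the median of 0.19, 107 genes were higher and 140 lower, and with the scaling without those genes, 156 were higher and 131 lower. The balance between the directions therefore depended on the scaling. Immature neutrophils of the same libraries had fewer genes past 2-fold, 40 (0.471%) higher and 16 (0.188%) lower of 8490.

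Chil3 (ENSMUSG00000040809, chr3:106147554-106167564, GRCm38), which encodes the secreted chitinase-like protein Ym1, had the highest log2 ratio on this scale among genes of at least 50 CPM in a library. Chil3 stood at 165 CPM in control members and 6125 CPM in GC members, 37.2-fold apart (35.2 to 39.4). In GC members the 5 highest cells held 1.89% of the Chil3 UMIs, but in control 5 cells held 41.5% of 1221 UMIs. Without the 5 highest cells of each library Chil3 stood at 97.8 CPM in control and 6066 CPM in GC. After each cell had been thinned to 500 UMIs, 3.70% of control members (2.79 to 4.799%) and 86.9% of GC members (85.3 to 88.4%) held a Chil3 UMI. In erythroblasts, which should lack it, the shares were 2.38% and 12.3% at median depths of 6119 and 5894 UMIs (members 4651 and 3842). The control share was thus within the range of background and the GC share above it. Before thinning the shares of members were 29.2% and 98.5%. Free RNA held Chil3 at 1062 CPM in control and 3047 CPM in GC. Immature neutrophils held 4846 CPM in control and 15421 CPM in GC, 3.18-fold apart. The immature cells were thus the higher ones in both libraries, and the gap between the stages was smaller in GC. Its close paralog Chil4 had 0 and 1 UMIs in members. Fcnb and Cebpe, the immature markers other than Chil3 that the rule did not use, summed to 25.9 CPM in control and 26.6 CPM in GC members.

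Other genes of the highest 10 were low in control members and spread over diverse functions. Prnp, the prion protein gene (chr2:131909928-131938429), stood at 4.58 CPM in control and 287 CPM in GC, 62.6-fold apart (44.7 to 90.6). Ces2g, a carboxylesterase, stood at 3.77 and 122 CPM. Klhl6, an adaptor for a ubiquitin ligase, stood at 10.4 and 160 CPM. Tlr7, the endosomal receptor for single-stranded RNA, stood at 1.48 and 54.8 CPM. Glul, glutamine synthetase, stood at 33.96 and 266 CPM. All of these were also higher in GC immature neutrophils, by 9.21-fold for Prnp, 65.6-fold for Ces2g, 2.69-fold for Klhl6, 3.61-fold for Tlr7 and 5.83-fold for Glul.

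F13a1 (chr13:36867178-37050244), the coagulation factor XIII A chain and a common marker of monocytes, stood at 21.8 CPM in control members and 380 CPM in GC members, 17.4-fold apart (14.8 to 20.5). A F13a1 UMI was found in 33 of the 1460 control members and in 1155 of the 1864 GC members. Thinned to 500 UMIs, the shares were 0.274% and 16.8%, against 0.397% and 0.781% of control and GC erythroblasts. The other 9 monocyte and macrophage markers were not higher with it (104 and 84.7 CPM in sum), and Ms4a6c, among them, stood at 21.4 and 16.4 CPM. In free RNA F13a1 stood at 112 and 109 CPM. In control members, 63.0% of the F13a1 UMIs lay in 5 cells, against 2.93% in GC. Immature neutrophils held F13a1 at 10.0 and 134 CPM. Saa3, an acute phase apolipoprotein, was held by few cells. Saa3 had 6 UMIs in control and 457 in GC members, but 43 GC cells held all 457, and 5 of them held 62.1%. Mt1, also among the highest 10, was found in 275 of the 1864 GC members, and 5 cells held 17.0% of its UMIs.

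**Figure D2:**
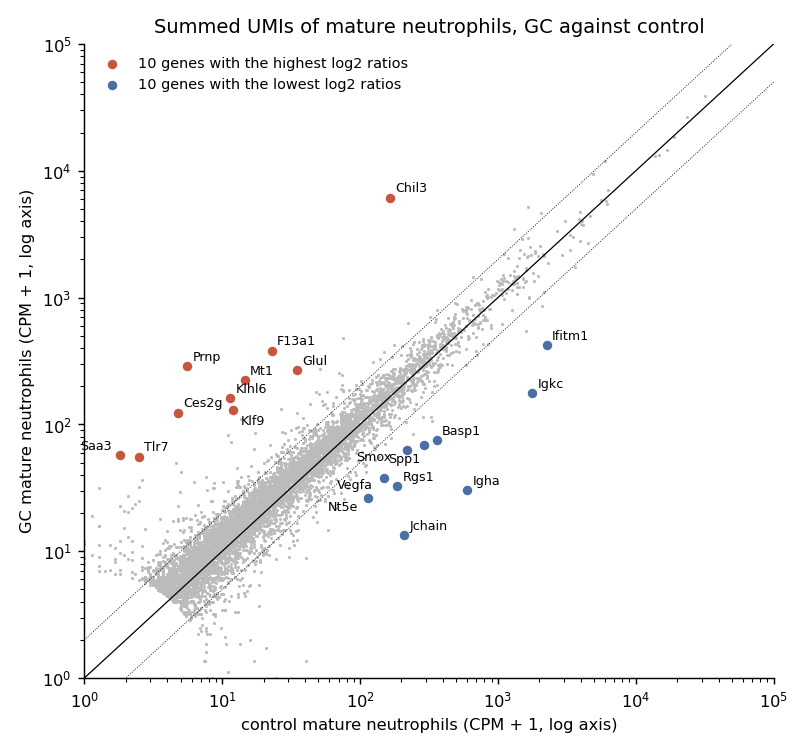
Each grey point is a gene, at its CPM + 1 over the summed UMIs of control (x) and GC (y) mature neutrophils, both on log axes. The solid line marks equal levels and the dotted lines 2-fold. The 10 genes with the highest log2 ratios (red) reach from 54.8 to 6125 CPM in GC, and of the 10 lowest (blue) Ifitm1 has the highest level in both libraries.

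Among the 10 lowest genes, 3 belonged to plasma cells and rested on 1 barcode. Igkc, the kappa light chain constant gene, stood at 1773 CPM in control and 175 CPM in GC members, yet a single control barcode held 12301 of its 13157 UMIs. The same held for Igha, with 4330 of 4461 UMIs in 1 cell, and for Jchain, with 1470 of 1539. Without the 5 highest cells of each library, Igkc stood at 99.6 CPM in control and 174 CPM in GC, Igha at 16.6 and 27.6 CPM, and Jchain at 5.56 and 11.3 CPM, so that the direction turned. These values lay below the free RNA, which held Igkc at 2159 CPM in control and 4323 CPM in GC.

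Of the lower genes that many cells shared, the most abundant was Ifitm1 (chr7:140967221-140969825), an interferon-induced membrane protein that restricts virus entry. Ifitm1 stood at 2253 CPM in control and 420 CPM in GC, 0.186 of the control level (0.180 to 0.193). Thinned to 500 UMIs, 45.5% of control and 11.6% of GC members held an Ifitm1 UMI, against 1.19% and 0.781% of erythroblasts. Rgs1, a regulator of chemokine receptor signaling, stood at 185 and 31.5 CPM, 0.170 of the control level. Basp1, a membrane-bound signaling protein, stood at 360 and 73.9 CPM. Spp1, osteopontin, stood at 289 and 67.4 CPM. Nt5e, the ectoenzyme CD73 that makes adenosine, stood at 113 and 25.2 CPM. Vegfa stood at 149 and 36.6 CPM, and Smox, spermine oxidase, at 218 and 61.5 CPM. In GC immature neutrophils these 7 genes (Ifitm1, Rgs1, Basp1, Spp1, Nt5e, Vegfa and Smox) were at 0.308 to 0.614 of the control level, with Nt5e the lowest and Rgs1 the highest.

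Glucocorticoid target genes were read as a list of 30, of which 24 had enough UMIs. In GC members 7 were at least 2-fold higher and 2 at least 2-fold lower, against 2.33% and 1.14% of all genes, and the median was 0.37 beside 0.19 for all genes. With cells thinned to 500 UMIs the medians were 0.18 for the list and 0.21 for all genes, and with S100a8 and S100a9 at 10% or more 0.19 and 0.17, so that the list median then lay near that of all genes. After thinning 2872 genes had enough UMIs, in place of 7390, so the genes measured differed too. Fkbp5, a cochaperone that dampens the receptor, stood at 12.8 CPM in control and 109 CPM in GC (8.50-fold, 6.87 to 10.6). Klf9, a transcription factor, stood at 11.1 and 128 CPM (11.6-fold, 9.24 to 14.7). Tsc22d3, which encodes the leucine zipper protein GILZ, stood at 72.6 and 244 CPM (3.36-fold, 3.05 to 3.70). In immature neutrophils Fkbp5, Klf9 and Tsc22d3 were 3.28, 2.75 and 2.54-fold higher in GC. Zbtb16, a zinc finger repressor, had 12 and 288 UMIs, and Klf2, a factor that keeps leukocytes quiet, stood at 322 and 698 CPM. The metallothionein genes Mt1 and Mt2 stood at 13.6 and 0.943 CPM in control and 223 and 14.2 CPM in GC. Free RNA held Mt1 at 120 and 371 CPM, above the members in each library, and Mt2 at 26.1 and 161 CPM. With the free RNA profile taken off at 5% of the summed UMIs, the log2 ratio of Mt1 was 4.08 in place of 3.62. Thinned to 500 UMIs, 0.616% of control and 6.33% of GC members held an Mt1 UMI, against 0.397% and 0.781% of erythroblasts. Rgs2 stood at 588 and 291 CPM and Tgm2, transglutaminase 2, at 241 and 83.7 CPM. Per1 (192 and 217 CPM), Dusp1 (1021 and 1150 CPM) and Sgk1 (62.9 and 84.3 CPM), which are often used as reporters of the hormone, were within 1.34-fold. Nfkbia, the inhibitor of NF-kB, stood at 1115 and 2201 CPM, and Il1r2, the decoy receptor for IL-1, at 1534 and 2207 CPM.

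Promoters of this list were searched because the receptor reads a palindrome. Of the 27 genes with a RefSeq promoter (build GRCm38.p6), 4 held the letters GNACA, 3 further bases and TGTNC (N is any base), which read the same on both strands, in the 250 bases before at least 1 of their starts, against 0.440% of the 27025 genes with a promoter (0.387% of the 32851 promoters). The shorter letters TGTTCT, on either strand, were before a start of 6 of the 27 (22.2%) and of 18.2% of all genes. The 3 that were expressed in the members are shown on the plus strand with the match in capitals. Mt1 (chr8:94178839-94179088) was among the highest 10. The Sgk1 window (chr10:21993640-21993889), 1 of 6 for that gene, lies inside the longer annotated gene, and the Txnip window (chr3:96557707-96557956) ends where the gene begins.
Mt1: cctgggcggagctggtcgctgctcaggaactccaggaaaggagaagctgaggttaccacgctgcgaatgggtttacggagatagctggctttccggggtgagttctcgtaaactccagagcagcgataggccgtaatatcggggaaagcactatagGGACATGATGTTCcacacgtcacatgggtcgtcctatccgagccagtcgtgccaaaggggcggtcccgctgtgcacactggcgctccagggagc
Sgk1: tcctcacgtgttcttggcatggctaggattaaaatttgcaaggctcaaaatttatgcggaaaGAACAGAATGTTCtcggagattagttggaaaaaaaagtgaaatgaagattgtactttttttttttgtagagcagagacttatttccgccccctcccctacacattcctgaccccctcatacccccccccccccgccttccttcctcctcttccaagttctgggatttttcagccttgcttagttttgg
Txnip: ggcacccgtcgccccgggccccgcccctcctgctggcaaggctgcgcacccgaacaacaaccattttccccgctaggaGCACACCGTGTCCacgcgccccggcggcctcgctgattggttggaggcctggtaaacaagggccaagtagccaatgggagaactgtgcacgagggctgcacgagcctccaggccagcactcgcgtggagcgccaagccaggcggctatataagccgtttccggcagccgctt

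The match began 94 bases before the start in Mt1, 188 in Sgk1 and 172 in Txnip. The GC levels were 16.4-fold the control for Mt1, 1.34-fold for Sgk1 and 1.36-fold for Txnip. The log2 ratio of Mt1, 3.62, was 2.51 with S100a8 and S100a9 at 10% or more and 2.40 with GC cells weighted to the control's S100a8 and S100a9 ranges. A match is a description of the letters and not of binding. Of the highest 10 genes, 9 had a promoter entry, and Mt1 was the 1 that held the match. The fourth gene, Slc10a6, had no UMI in the members.

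Among 12 genes of the receptor and its cofactors, none was past 2-fold and the median was 0.06. The receptor gene Nr3c1 stood at 59.4 and 77.7 CPM (1.31-fold, 1.16 to 1.48). Hsd11b1, the enzyme that regenerates active glucocorticoid inside cells, stood at 124 and 77.0 CPM (0.623, 0.562 to 0.690). Nr3c2, which encodes the mineralocorticoid receptor, had 0 and 1 UMIs.

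Genes that define the mature neutrophil lay mostly below control in GC members, within 2-fold. Of the 16 mature identity genes, 6 lay above 0 on the log2 scale. The median was -0.19 beside 0.19 for all genes, and none of the 16 was past 2-fold. The nearest to it were Lilrb4a, an inhibitory receptor, at 690 and 376 CPM, and the chemokine gene Ccl6, at 1686 and 999 CPM. Retnlg, a resistin-like protein, stood at 31741 and 39236 CPM. Among receptors that hold neutrophils in marrow or draw them out, Cxcr4 stood at 520 and 416 CPM (0.799, 0.763 to 0.837) and Cxcr2 at 418 and 576 CPM (1.38, 1.32 to 1.44). Of the 22 egress and adhesion genes, Icam1, the ligand of leukocyte integrins, was the 1 past 2-fold, at 10.6 and 72.3 CPM (6.79-fold, 5.36 to 8.71). The list median was 0.07 beside 0.19 for all genes, of which 2.33% were at least 2-fold higher. No growth factor receptor gene of 19 was past 2-fold (median 0.06), with Il4ra at 36.3 and 64.3 CPM and Il6ra at 52.6 and 89.0 CPM the farthest up.

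Late granule and secretory genes lay on both sides. Of 23, Mmp8 and Chil3 were at least 2-fold higher and Prok2 at least 2-fold lower (all genes, 2.33% and 1.14%), with a median of 0.00 beside 0.19 for all genes. Chil3 is also in the early list, and was higher in immature than in mature cells. Mmp8, neutrophil collagenase, stood at 1649 and 5195 CPM (3.15-fold, 3.09 to 3.22), and its median share of a cell's UMIs was 0.123% in control and 0.494% in GC. Mmp9, gelatinase, stood at 1828 and 1357 CPM. Lcn2, a siderophore-binding protein, stood at 4933 and 9388 CPM, and Hp, haptoglobin, at 1656 and 2927 CPM. Lyz2, lysozyme, was lower at 4529 and 2680 CPM. Prok2, a chemokine-like peptide, stood at 80.6 and 30.4 CPM. Among 12 early granule genes outside the rule, Chil3 was higher and Tuba1b, a tubulin at 55.0 and 24.7 CPM, lower, with a median of 0.19.

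Interferon-stimulated genes lay mostly below control in GC members, with 5 of the 30 measured above 0 on the log2 scale. Of the 30, 0 were at least 2-fold higher and 8 at least 2-fold lower (all genes, 1.14%), and the median was -0.52 beside 0.19 for all genes. The median was -0.29 with 20 CPM added and -0.80 with cells thinned to 500 UMIs. The 8 were Ifitm1, Isg15, Ifit3, Rsad2, Oasl1, Oasl2, Oas3 and Rtp4. Isg15, a ubiquitin-like modifier, stood at 57.1 and 13.8 CPM (0.242, 0.195 to 0.299). Oasl2, an oligoadenylate synthetase relative, stood at 63.2 and 21.6 CPM, and Rsad2, viperin, at 63.5 and 27.7 CPM. Free RNA held Rsad2 at 86.2 and 53.2 CPM and erythroblasts at 569 and 316 CPM, both above the members. Thinned to 500 UMIs, 7.81% of control and 3.33% of GC members held a UMI of Isg15, Ifit1, Ifit3, Rsad2 or Oasl2, against 63 of 252 control and 79 of 512 GC erythroblasts (15.4%) and 0.730% of control B cells. The share was thus lower in members than in erythroblasts, where Rsad2 alone stood at 569 and 316 CPM, and in both it was lower in GC. Shares were not taken gene by gene, so they do not order the cell types by interferon response. Irf9, a transcription factor of the pathway, was closer, at 27.6 and 29.9 CPM. The receptor gene Ifnar1 stood at 67.5 and 64.5 CPM and Ifngr1 at 144 and 158 CPM. Immature neutrophils had a median of -0.37 over 24 of these genes, with none past 2-fold in either direction.

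Inflammatory genes lay on both sides of control. Of 25 NF-kB and inflammatory genes, Icam1, Tnf, Cxcl1 and Ccl3 were at least 2-fold higher, Ptgs2 at least 2-fold lower (all genes, 2.33% and 1.14%), and the median was 0.24 beside 0.19 for all genes. Tnf stood at 40.3 and 98.2 CPM (2.44-fold, 2.13 to 2.79) and Ccl3, a macrophage inflammatory protein, at 56.5 and 135 CPM. Cxcl1, a CXCR2 ligand, had 10 UMIs in control and 183 in GC. The more abundant CXCR2 ligand gene Cxcl2 stood at 6344 and 7002 CPM. Ptgs2, cyclooxygenase 2, stood at 215 and 104 CPM, and Osm, oncostatin M, at 291 and 208 CPM. Of 12 genes of the IL-1 family, Pycard, the inflammasome adaptor ASC, was at least 2-fold higher (all genes, 2.33%), at 52.2 and 152 CPM. The median was 0.29 beside 0.19 for all genes. Il1b itself stood at 0.715 of control (0.702 to 0.729), and Il1rn, the natural antagonist, at 130 and 81.6 CPM. Among 20 pattern and Fc receptor genes, Tlr8, at 2.70 and 10.6 CPM, was past 2-fold (all genes, 2.33% higher), with a median of 0.11.

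**Figure D3:**
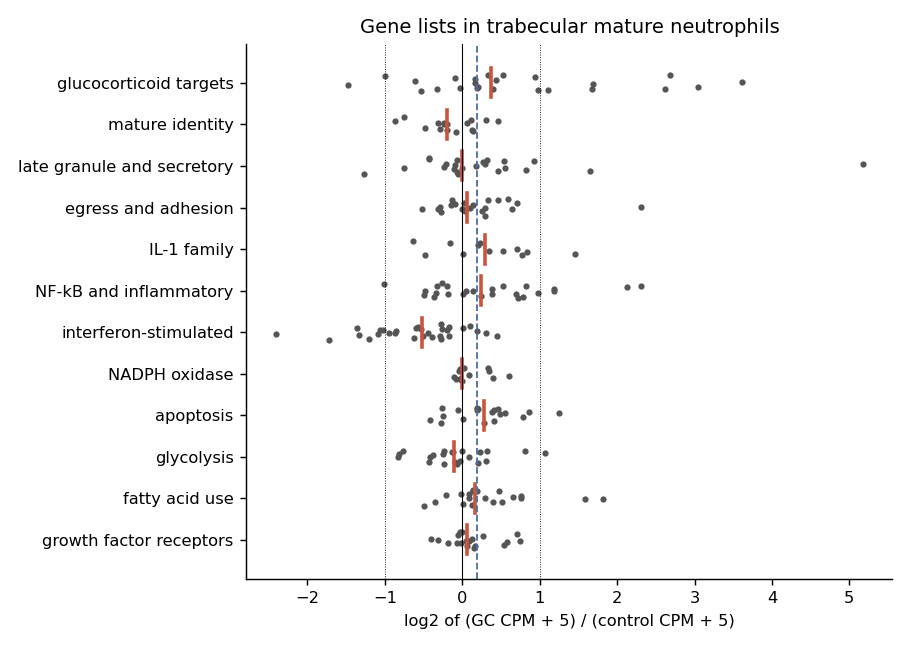
Points are genes, placed by log2((GC CPM + 5)/(control CPM + 5)) in trabecular mature neutrophils, in 12 lists. Red bars mark list medians, the dashed blue line the median of all genes (0.19) and dotted lines 2-fold. The interferon-stimulated genes sit to the left (median -0.52) and 7 glucocorticoid targets lie beyond the right dotted line.

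Survival and metabolic genes were read in 4 lists. Bcl2l1, which encodes the survival protein BCL-XL, stood at 74.7 and 185 CPM (2.48-fold, 2.25 to 2.74). It was the 1 gene of 19 in the apoptosis list past 2-fold (all genes, 2.33% higher), with a median of 0.28 beside 0.19 for all genes. Mcl1, on which neutrophil survival depends, stood at 1860 and 2261 CPM, and its opponent Bcl2l11 at 249 and 185 CPM. Bcl2a1a stood at 3.23 and 10.0 CPM, but Bcl2a1a, Bcl2a1b and Bcl2a1d are near-identical copies whose reads can be shared. In fatty acid use, Pnpla2, the triglyceride lipase ATGL, stood at 47.0 and 179 CPM (3.80-fold, 3.38 to 4.28) and Acsl1, which activates long-chain fatty acids, at 56.2 and 179 CPM (3.19-fold, 2.86 to 3.56). They were the 2 of 20 past 2-fold (all genes, 2.33% higher), with a median of 0.17 beside 0.19 for all genes. Cpt1a, which brings fatty acids into mitochondria, stood at 26.4 and 38.5 CPM, and Cd36, a fatty acid uptake receptor, had 18 and 39 UMIs. Of 22 glycolysis genes, Pfkfb3 was past 2-fold at 23.9 and 55.3 CPM (all genes, 2.33% higher), with a median of -0.10. The lactate exporter Slc16a3 stood at 1067 and 623 CPM and the glucose transporter Slc2a3 at 363 and 205 CPM. None of 13 NADPH oxidase and redox genes was past 2-fold (median -0.01), and Cybb, the catalytic subunit, stood at 185 and 179 CPM.

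The remaining lists held between 0 and 2 genes past 2-fold in a direction, where 2.33% of all genes were higher and 1.14% lower. Of 11 eicosanoid genes, Ptgs2 was lower (median -0.03), and Alox5ap, the activator of leukotriene synthesis, stood at 1493 and 2894 CPM. In the list of 11 iron and metallothionein genes, Mt1 and Mt2 were the 2 past 2-fold, both higher (all genes, 2.33%; median -0.03). Klf2 was the 1 of 18 transcription factors past 2-fold (median 0.20), and Cebpb stood at 4101 and 4015 CPM. Genes that tissue digestion induces had a median of -0.04 over 13, with Atf3 lower at 136 and 54.8 CPM. Cell cycle genes had a median of -0.29 over 15, with Top2a at 31.7 and 11.1 CPM, and free RNA held it at 163 and 120 CPM. The long noncoding RNAs Malat1 (14688 and 13364 CPM) and Neat1 (745 and 640 CPM) were within 2-fold.

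The members were not uniform, and their inflammatory genes varied with the S100a8 and S100a9 share. Among control members Il1b stood at 5467 CPM in cells with a share of 3 to 10%, 5944 CPM at 10 to 20%, 4972 CPM at 20 to 30% and 1862 CPM at 30% or more. Among GC members Il1b stood at 6319, 3477, 940 and 435 CPM in the same ranges. The lowest range thus held more Il1b in GC than in control, and the other 3 held less. In the lowest range the 109 control cells also held Igkc at 23083 CPM, against 245 CPM in GC. A single control barcode held 12301 of the 13157 Igkc UMIs of all control members, so this value is not a trait of the 109 cells. The UMIs of that barcode are part of the control total in this range, and the other genes were not recomputed without it. Cxcl2 stood at 8575, 9981, 8714 and 4392 CPM in control and 14377, 10124, 4197 and 2460 CPM in GC. Csf3r stood at 1144, 1372, 1143 and 568 CPM in control and 1087, 875, 524 and 353 CPM in GC. Icam1 stood at 52.4, 30.6, 9.55 and 2.10 CPM in control and 253, 96.1, 10.8 and 6.06 CPM in GC, so its difference was widest at the low end. Mt1 stood at 24.3, 34.3, 14.6 and 7.92 CPM in control and 809, 227, 54.8 and 30.3 CPM in GC.

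Fkbp5 was higher in GC in every range, at 35.5, 9.81, 12.4 and 10.7 CPM in control and 141, 127, 109 and 60.6 CPM in GC. So were Klf9, at 39.3, 22.1, 3.37 and 8.62 CPM against 198, 137, 113 and 86.1 CPM, and Chil3, at 733, 397, 68.0 and 89.5 CPM against 9744, 6901, 5234 and 3814 CPM. F13a1 stood at 213, 40.5, 3.93 and 1.86 CPM in control and 322, 456, 416 and 274 CPM in GC. Ms4a6c, a monocyte gene, stood at 202, 31.9, 3.93 and 4.20 CPM in the same control ranges and 59.9, 18.5, 2.85 and 2.42 CPM in GC. The part of other cells' RNA in the lowest range was not tested. Ifitm1 was lower in GC in each range, at 2262, 2855, 3067 and 1799 CPM against 415, 365, 290 and 735 CPM. The ranges share the rule's measure and are a description. When the GC cells were weighted to the control's numbers per range, 94 genes were at least 2-fold higher and 176 at least 2-fold lower.

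**Figure D4:**
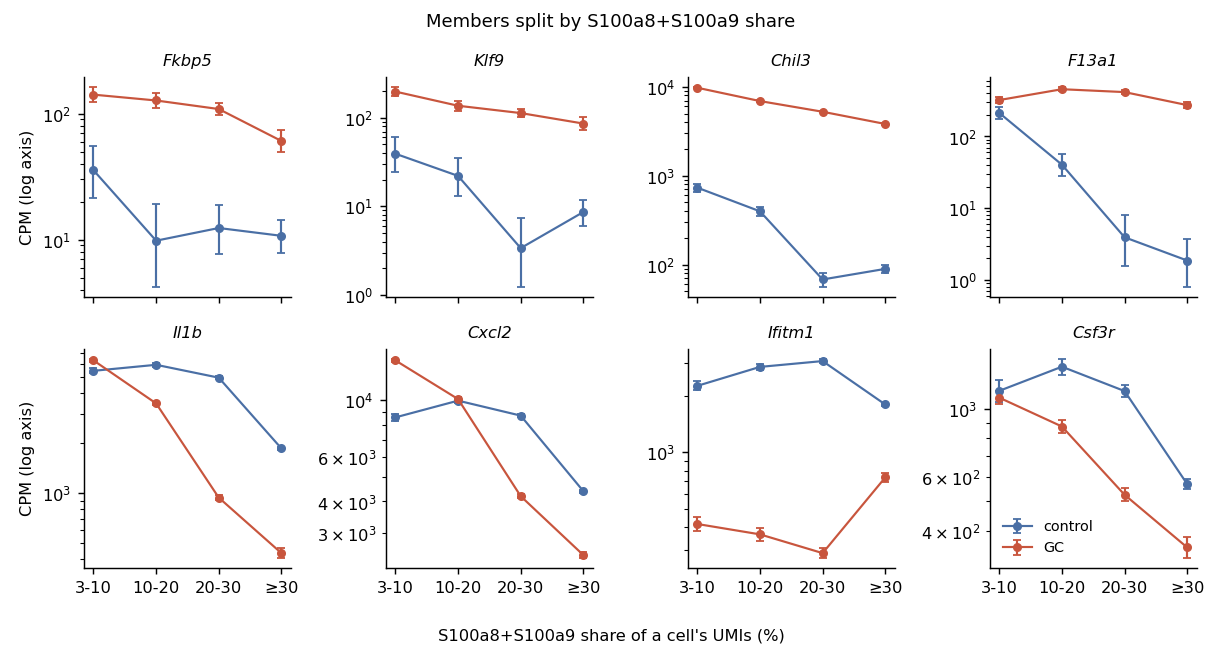
Panels show CPM (log axis) of 8 genes in members split by the share of S100a8 and S100a9 in a cell's UMIs (x, %), blue for control and red for GC, with exact 95% Poisson intervals. Fkbp5, Klf9, Chil3 and F13a1 lie higher in GC in each range and Ifitm1 lower. The Il1b and Cxcl2 lines cross, with GC higher in the lowest range and lower in the 2 highest.

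Against immature neutrophils, the members were compared in each library. The rule separates these cells, so the values are a description. The 8 genes farthest up in both libraries were Il1b, Wfdc17, Ccl6, Cxcl2, Jaml, Ccrl2, Acod1 and Cstdc4. Il1b was 25.1-fold higher in mature cells in control and 18.9-fold in GC. Wfdc17, a secreted antiprotease-like protein, was 31.3-fold and 15.4-fold higher, and Jaml, an adhesion molecule for crossing epithelia, 20.4-fold and 13.9-fold. Acod1, which makes itaconate, was 11.0-fold and 10.2-fold higher. Between the libraries, Acod1 stood at 1591 CPM in control and 548 CPM in GC members. Of the 16 mature identity genes, 14 were at least 2-fold higher in mature cells in each library, where 7.59% and 7.63% of all genes were. Of 15 cell cycle genes, 13 were at least 2-fold lower in each, where 7.11% and 4.37% of all genes were. Glucocorticoid targets at least 2-fold higher in mature cells numbered 9 of 22 in control and 16 of 25 in GC, with medians of 0.79 and 1.19.

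The same rule found 979 control and 715 GC mature neutrophils in callus, with medians of 1359 and 1231 UMIs, at a lower depth than in trabecular bone. S100a8 and S100a9 took 7.65% and 8.25% of their summed UMIs, against 29.3% and 21.3% in trabecular members. Trabecular members were richer in late granule genes, of which 17 of 23 were at least 2-fold higher than in callus in control (all genes, 10.1%) and 15 of 23 in GC (16.5%). In control, Lcn2 stood at 4933 CPM in trabecular bone and 562 CPM in callus, Mmp8 at 1649 and 179 CPM, and Anxa1, a glucocorticoid-induced regulator of inflammation, at 774 and 64.2 CPM. Callus members held more Fth1, ferritin heavy chain, at 63283 CPM against 18904 CPM, where callus free RNA held 4585 CPM. Spp1 stood at 7370 CPM in callus members against 289 CPM, but callus free RNA held Spp1 at 6895 CPM and callus B cells at 668 CPM. The stromal collagen gene Col1a1 stood at 495 CPM in control callus members, 3058 CPM in callus free RNA and 3.37 CPM in trabecular members. Tissue, fracture and library cannot be told apart in these differences.

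Some glucocorticoid targets that were at least 2-fold higher in GC members of trabecular bone had fewer than 50 UMIs in callus, Fkbp5 and Zbtb16 among them. Those with at least 50 UMIs were not past 2-fold there. Fkbp5 stood at 15.9 CPM in control and 19.4 CPM in GC callus members, and Tsc22d3 at 35.1 and 31.7 CPM. Zbtb16 had 5 and 2 UMIs there. Klf9 stood at 29.1 and 50.1 CPM in callus, from 44 and 49 UMIs (1.72-fold, 1.12 to 2.64), an interval that includes 2-fold. Of 21 measured targets, 0 were at least 2-fold higher in GC callus members and 3 at least 2-fold lower (all genes, 4% and 3.56%), with a median of -0.09. Of 24 NF-kB and inflammatory genes measured in callus, 2 were at least 2-fold higher and 5 at least 2-fold lower, with a median of 0.16 beside -0.02 for all genes. Il1b stood at 5132 and 878 CPM in callus (0.171, 0.159 to 0.184) where trabecular members were at 0.715, and Cxcl2 at 15292 and 3131 CPM (0.205, 0.197 to 0.213) where trabecular members were at 1.10. Osm was at 0.182 of control in callus and 0.714 in trabecular bone, and Ier3, an immediate early gene, at 0.193 and 0.867. Tnf was higher in GC in both tissues, at 4.18-fold and 2.44-fold. Ifitm1 was lower in both, at 0.531 and 0.186 of control. Of 3927 genes measured in both tissues, 10 were at least 2-fold higher in both, which is 12.5% of the 80 in trabecular bone and 6.62% of the 151 in callus. Of all 3927 genes, 2.04% were higher in trabecular bone and 3.85% in callus. A further 8 were at least 2-fold lower in both, 16.7% of 48 and 6.67% of 120, where 1.22% and 3.06% of all were lower. The difference between the tissues was not tested.

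**Figure D5:**
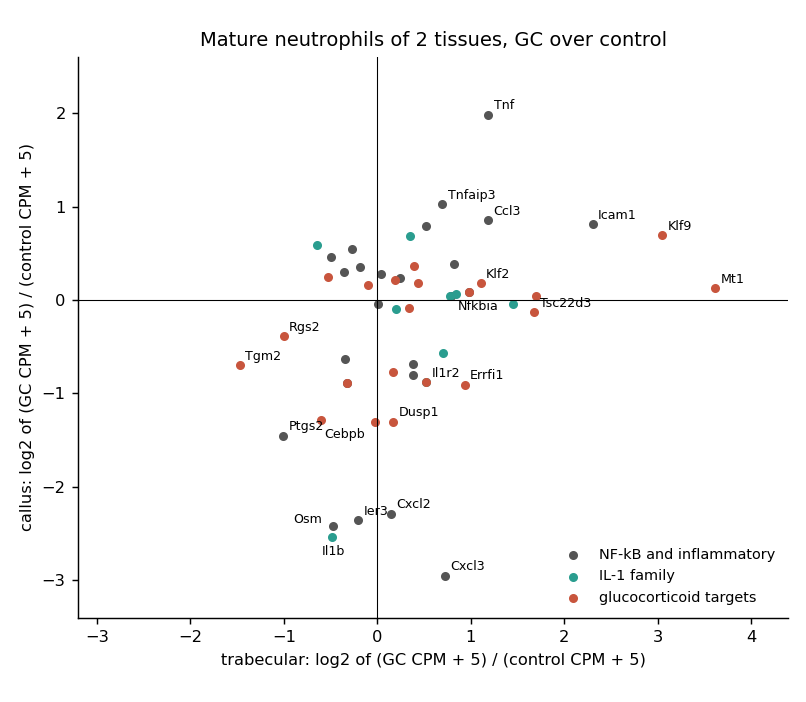
Points are genes of 3 lists, at log2((GC CPM + 5)/(control CPM + 5)) in trabecular (x) and callus (y) mature neutrophils, for genes with at least 50 UMIs in both comparisons. Klf9, Mt1 and Tsc22d3 lie to the right and within 0.69 of 0 on the y axis, and Il1b, Cxcl2, Osm and Ier3 lie low on the y axis, with x values between -0.48 and 0.14. Fkbp5 had too few UMIs in callus to be drawn.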

How the data were processed

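Single-cell RNA-Seq of 4 libraries was used. The authors deposited counts of UMIs per gene and barcode, without normalization. The file headers name Cell Ranger 4 (4.0.0 for GC callus), the submitters' processing notes Cell Ranger 5.0.1, Seurat 3.2.0 and mm10. The matrices held 41239842 and 45876714 UMIs in control and GC trabecular bone, 95852254 and 64388215 in callus. The GC callus matrix was already reduced to 7762 barcodes. No cell labels were used.

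UMIs of the members were summed and scaled to CPM in Python 3.11.15 (numpy 2.4.6, scipy 1.17.1). Ratios had 5 CPM added. Intervals were exact Poisson, Clopper-Pearson or conditional. The fold scale was tested on simulated Poisson counts drawn from a pooled profile. They held no spread between cells, so that test covers counting error only. No doublets were removed, and an alternative did so. Genes named were the 10 highest and 10 lowest ratios over 50 CPM, the 8 highest over immature cells, and defining or extreme members of 21 lists. The members and lists were chosen with earlier results of these data known. Genes split by S100a8 and S100a9 share were chosen after their values were seen. Free RNA was not subtracted, and an alternative took it off. Single values of some genes are not reported here.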

Additional observations from a re-analysis of the deposited data

Results flagged for a closer look

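Among the listed genes, 10 had GC over control ratios on opposite sides of 1 in trabecular and callus mature neutrophils, with both counting intervals clear of 1 and at least 2-fold in 1 of the tissues. There were 264 genes compared, and 53 lay on opposite sides at any size with both intervals clear of 1. The difference was not tested, since each tissue had 1 library per treatment. Higher in trabecular and lower in callus GC members were Cxcl2 (1.10-fold and 0.205-fold), Cxcl3 (1.68 and 0.121), Dusp1 (1.13 and 0.404), Errfi1 (2.07 and 0.523), Nfil3 (1.58 and 0.437), Pgam1 (1.17 and 0.344), Socs3 (1.51 and 0.335) and the collagen gene Col1a1 (2.50 and 0.864), a stromal marker with 25 and 68 UMIs in trabecular members. Lower in trabecular and higher in callus were Atf3 (0.403 and 2.34) and Prok2 (0.377 and 3.05). The median gene of trabecular members was at 0.19 on the log2 scale, and Cxcl2 and Dusp1 lay below it. Their side of 1 in trabecular bone therefore depends on the scaling.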

How the results depend on the processing

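No paired analysis was possible because each condition had 1 library. Over 22 alternatives, 72 summary values held and 37 moved. A share held when it stayed within its main counting interval, and a list median when it stayed between the median bounds of its genes. Gene counts had a set fold limit. The order of the control and GC shares turned where the values below show it. The control share of 36.7% moved to 38.4% with mitochondrial UMIs of at most 5%, 32.8% with Ngp, Camp and Ltf under 0.5%, 27.1% with stricter cell calling and 39.3% over barcodes with hemoglobin under 10%. The GC share of 38.9% moved to 42.9% with 500 genes, 35.8% with S100a8 and S100a9 at 5%, and 32.5%, 21.8% and 43.5% in the last 3 settings. With S100a8 and S100a9 at 2%, a limit chosen after seeing the data as was 10%, the GC share was 40.7%, and at 10% the shares were 33.97% and 29.6%. The 172 higher genes became 107 with stricter cell calling, 337 and 66 with 1 and 20 CPM added, 107 centred and 94 weighted to the control S100a8 and S100a9 ranges (added after seeing the data). The 84 lower genes became 158 and 26 with 1 and 20 CPM added, 131 scaled without S100a8, S100a9 and hemoglobin, 140 centred and 176 weighted. The glucocorticoid target median of 0.37 (all genes 0.19) became 0.18 centred, which takes the median of all genes off both. It became 0.18 with cells thinned to 500 UMIs (all genes 0.21, over 2872 genes) and 0.19 at 10% S100a8 and S100a9 (all genes 0.17). Other checks were also added after seeing the data. In callus, 164 higher and 146 lower became 87 and 71 with 20 CPM added, 248 and 277 with a minimum of 20 UMIs, and 72 and 58 with 200. Mature against immature, 612 higher and 573 lower in control became 340 and 180 with 20 CPM added, and 1198 lower with 1. Trabecular against callus, 644 higher and 1516 lower became 295 and 909 with 20 CPM added, and 833 lower at 200 UMIs. The causes were not tested, beyond the fewer genes that a higher minimum leaves.

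Of 419 values of the named genes, 180 lay within the counting interval of the main ratio and 232 outside it. That interval has no CPM added, so a value can lie outside it without any change. The other 7 turned direction, all of immunoglobulin genes. The log2 ratio of Jchain became 0.13 at 2% S100a8 and S100a9, 0.24 at 10% and 0.70 in members without other cells' markers (1388 control, 1781 GC). That of Igha became 0.49 and 0.62 in the last 2 settings and that of Igkc 0.43 and 0.94. The other 17 named genes kept their direction and 2-fold size in each alternative run. Doublet scoring left out 51 control and 75 GC members, and the shares were then 36.6% and 38.8%. Depth limits genes of under 50 UMIs, which were not ranked.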
